A study of Homo sapiens with 10 samples.

Results

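The enzymes that write, copy and remove DNA methylation were examined in human cells that overexpressed DAZL, an RNA-binding protein of germ cells. The family was taken by gene symbol and holds 10 genes, DNMT1, UHRF1, DNMT3A, DNMT3B, DNMT3L, TET1, TET2, TET3, TDG and MBD4, of the 64940 genes kept from the deposited table. Levels were given as TPM, a transcript abundance scaled for gene length and for the total of each library. Of the 10 members, 9 had a mean of at least 1 TPM over the 4 libraries and were tested, and DNMT3L did not.

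All cells came from H9, an established human embryonic stem cell line, so a single genotype lies behind both groups. The oeDAZL group (n = 2) holds human primordial germ cell-like cells (PGCLCs) with lentiviral overexpression of DAZL. The control group (n = 2) is wild type. The sample labels describe the controls as spontaneously differentiated (SD) cells, whereas the series' design text calls them WT PGCLCs, and these do not say whether they received the BMPs or a control virus. The study's methods describe BMP4 and BMP8a treatment followed by lentiviral transduction for overexpression experiments in general, and, for the miRNA libraries, a GFP control virus and sorting before RNA extraction. The sample labels name neither for the controls, and this difference is not settled here. Nothing in the labels says that the libraries of a group came from separate cultures, so the P-values measure only the spread between these libraries, which may be technical. The miRNA libraries of DAZL knockdown cells were not analysed here.

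Methylation of cytosine in CpG is copied to the new strand at each replication by DNMT1, which UHRF1 brings to hemimethylated sites. DNMT3A and DNMT3B place methyl groups on unmethylated DNA, and DNMT3L is their catalytically inactive partner. The TET enzymes oxidize 5-methylcytosine, and TDG and MBD4 excise modified or mismatched bases so that repair can restore cytosine. Primordial germ cells are known for losing most of their methylation in the embryo, with low UHRF1 and low de novo methyltransferases.

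DAZL itself stood at 0 and 0.0333 TPM in control against 102 and 101 TPM in oeDAZL, as labelled. Over all 16687 tested genes, 115 were called (fold change of at least 2 and unadjusted P-value of at most 0.05 in limma), which is 0.689%, and 10 had an adjusted p-value under 0.05 (2 without control replicate 1 and 673 without control replicate 2). The TPM of the 9 PGC markers summed to 104 and 113 in control against 117 and 116 in oeDAZL, where PDPN, at 32.9 and 49.7 TPM against 58.5 and 52.5 TPM, was the only 1 of 7 tested with a log2 fold change above 0 (median -0.12). The highest of them on average over the 4 libraries was TFAP2C, and DDX4 was listed at 0 in every library. Sums for the pluripotency markers, led by LIN28A, were 540 and 486 TPM against 483 and 466 TPM, and ZFP42 stayed under 0.1 TPM. POU5F1 pointed the other way from that sum, at 13.6 and 10.6 TPM against 22.4 and 20.4 TPM (adjusted p = 0.0896 in limma). The mesoderm and mesenchyme markers, led by VIM, summed to 3477 and 3647 TPM against 3483 and 3440 TPM. COL3A1 fell from 583 and 479 TPM to 224 and 220 TPM (adjusted p = 0.0344 in limma). COL1A1 pointed the same way, at 729 and 651 TPM against 455 and 486 TPM (adjusted p = 0.0885 in limma). TBXT had a log2 fold change of -0.97 (adjusted p = 0.173 in limma). HAND1 pointed the other way, at 958 and 1042 TPM against 1250.0 and 1248 TPM (adjusted p = 0.0918 in limma). At an unadjusted P-value of 0.05 in limma, 1 of 7 tested was higher and 3 lower, beside 5.02% and 15.2% of all genes. The median log2 fold change of these 7 was -0.16. The amnion and trophoblast markers, led by GABRP, summed to 2369 and 2179 TPM against 2213 and 2257 TPM, and CGA among them was called lower. Of the 7, none was higher and 3 were lower at an unadjusted P-value of 0.05 in limma, beside 5.02% and 15.2% of all tested genes. Their median log2 fold change was -0.06. Besides CGA, the lower ones were CDX2, at 22.8 and 20.4 TPM against 12.3 and 13.7 TPM, and ISL1, at 80.5 and 55.2 TPM against 45.4 and 48.7 TPM. The neural sum of 272 and 360 TPM against 449 and 419 TPM was nearly all NES, at 253 and 347 TPM against 440 and 409 TPM. The other 3 tested neural markers had log2 fold changes below 0, with PAX6 called lower and a median of -0.47 over the 4. PAX6 stood at 3.83 and 1.14 TPM in control against 0.0967 and 0.558 TPM in oeDAZL. Its controls differed from each other by more than the lower of them differed from either oeDAZL library. The endoderm markers, led by AFP, which was called lower, summed to 76.2 and 40.0 TPM against 29.6 and 32.3 TPM. Of the 4, none was higher and 2 were lower at an unadjusted P-value of 0.05 in limma, beside 5.02% and 15.2% of all genes. The log2 fold change was above 0 in 1 and below 0 in 3, with a median of -0.56. Besides AFP, the lower one was SOX7, at 27.9 and 17.0 TPM against 10.7 TPM in both oeDAZL libraries (adjusted p = 0.111 in limma). The controls of SOX7 differed from each other by more than the lower of them differed from either oeDAZL library. AFP stood at 36.3 and 13.1 TPM in control against 8.91 and 11.6 TPM in oeDAZL. Its controls differed from each other by more than the lower of them differed from either oeDAZL library. PDPN, POU5F1, COL3A1, COL1A1, TBXT, HAND1, CGA, CDX2, ISL1, PAX6 and SOX7 were named after their values were seen. Both groups held transcripts of other cell types, and in bulk RNA fewer cells of a type and less RNA per cell cannot be told apart. The part of these differences in the values of the methylation enzymes was not tested.

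Both groups held transcripts of every tested member, whereas DNMT3L stayed under 1 TPM. These levels are of bulk RNA, and protein was not measured. DNMT1 was the most abundant member per length, with a mean of 122 TPM in control and 113 TPM in oeDAZL. TDG came next, at 67.6 ± 2.87 TPM (SD, n = 2) in control. DNMT3B and UHRF1 followed, and their ranges overlapped in the control libraries. DNMT3A and MBD4 stood lower in control, at 45.7 ± 0.386 and 35.7 ± 1.46 TPM (SD, n = 2). The 3 TET genes were the lowest of the tested members in both groups, and TET3 and TET1 overlapped in control at 14.4 to 17.5 TPM and 13.96 to 14.9 TPM. In oeDAZL the order was the same down to UHRF1, after which MBD4 and DNMT3A overlapped and TET1 stood above TET3.

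**Figure D1:**
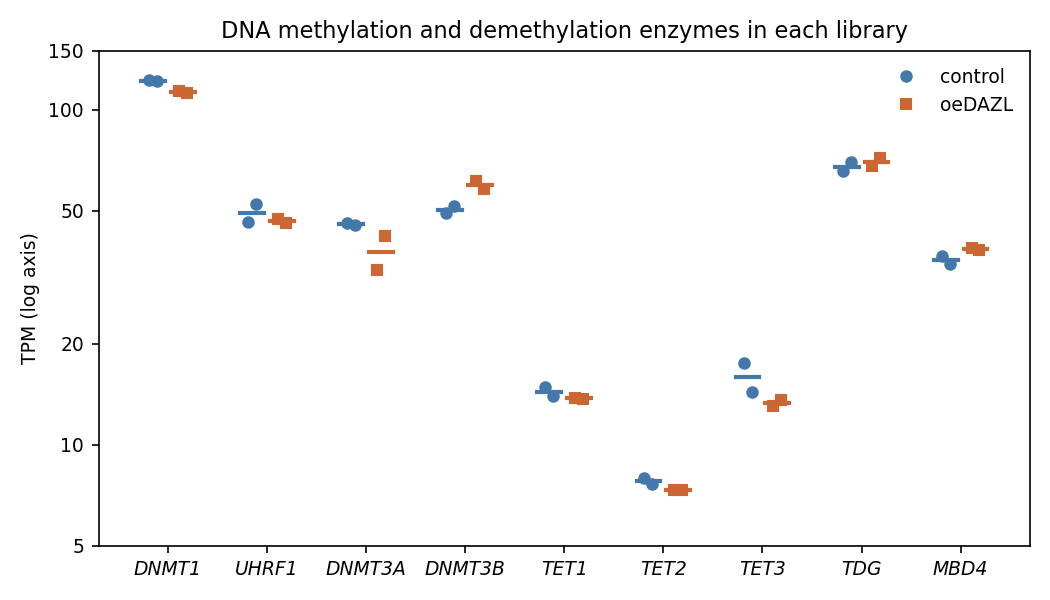
TPM of the 9 tested members in every library, on a log axis, with circles for control and squares for oeDAZL libraries (n = 2 per group) and short lines for the group means. DNMT3B and MBD4 lay higher in both oeDAZL libraries, and DNMT1, DNMT3A and the 3 TET genes lay lower in both, whereas UHRF1 and TDG overlapped.

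Between the groups the members differed little. None of the 9 tested members was called, higher or lower, against 0.126% of all tested genes called higher and 0.563% called lower (0.689% in all). In limma, no member reached an adjusted p-value below 0.05, against 0.024% higher and 0.036% lower (0.0599% in all). Their log2 fold changes, on the scale of log2(TPM + 1), lay between -0.29 and 0.24, with a median of -0.07 beside -0.08 over all tested genes. The log2 fold change was above 0 in 3 members and below 0 in 6, beside 34.7% and 65.3% of all tested genes. But 6 were above and 3 below with median-of-ratios scaling, and 5 above and 4 below with quantile normalization. The median of all tested genes was then 0.013 and 0.0049, so the shares above do not apply to these counts. Of the 9, 2 had an unadjusted P-value of at most 0.05 in limma, against 20.2% of all tested genes. One of them, DNMT3B, was higher (5.02% of all) and the other, DNMT3A, lower (15.2% of all). In 2 members the oeDAZL values were both above the controls and in 5 both below, beside 16.0% and 38.4% of all tested genes (54.4% without overlap in either direction). These shares do not set the family apart. The 95% intervals of the 9 fold changes reached no further than -0.56 and 0.41 on the log2 scale. A 2-fold change thus lay outside every one of them with the values as deposited. Like the P-values, these intervals measure only the spread between these libraries, which may be technical.

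**Figure D2:**
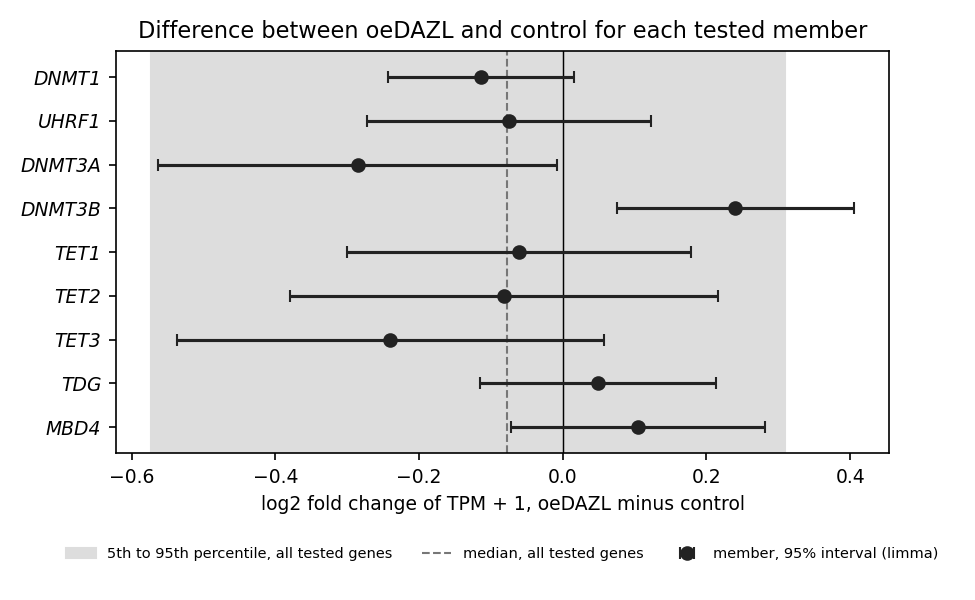
Log2 fold change of TPM + 1, oeDAZL minus control, of the 9 tested members, with limma's 95% interval. The grey band runs from the 5th to the 95th percentile of all 16687 tested genes (-0.57 to 0.31), the dashed line marks their median, and every member's point lies inside the band.

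The de novo methyltransferases pointed in opposite directions. DNMT3B (chromosome 20, 32762385 to 32809359, plus strand, hg38) was listed at 49.1 and 51.6 TPM in control and at 61.1 and 58.2 TPM in oeDAZL. Both oeDAZL libraries were above both controls, and the mean was 18.5% higher. Its log2 fold change was 0.24 (SE 0.07), with an unadjusted P-value of 0.0117 and an adjusted p of 0.154 in limma. DNMT3A (chromosome 2, 25227855 to 25342590, minus strand) was listed at 46.0 and 45.4 TPM in control and at 33.2 and 41.9 TPM in oeDAZL. Both oeDAZL libraries were below both controls, but they stood further from each other than the second of them stood from the controls. Its log2 fold change was -0.29 (SE 0.11), with an unadjusted P-value of 0.0457 and an adjusted p of 0.239 in limma.

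The value for DNMT3A rested on the first oeDAZL library. Without that library the log2 fold change of DNMT3A was -0.12 (unadjusted P-value 0.313, limma), whereas that of DNMT3B was 0.21 (unadjusted P-value 0.104). Leaving out control replicate 1 or 2 gave DNMT3A -0.28 and -0.29, with unadjusted P-values of 0.125 and 0.108 in limma. Without oeDAZL replicate 2 it was -0.45 (unadjusted P-value 0.00527, limma). DNMT3B was at an unadjusted P-value of at most 0.05 in limma in 12 of 13 other settings. In those that kept all 4 libraries, its adjusted p ran from 0.0809 to 0.333. The lowest was with the crossed replicate block of the closing section, itself among the 12 and chosen after seeing the data. The highest was without a filter on TPM. DNMT3L was listed at 0.124 and 0.0933 TPM in control and at 0.155 and 0 TPM in oeDAZL. DNMT3L, known for its role in methylation of the male germ line later in development, was thus near 0 in both groups and was not compared.

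Together DNMT3A and DNMT3B summed to 95.03 and 97.0 TPM in control and to 94.3 and 100.06 TPM in oeDAZL, so the groups overlapped in the total. The share of DNMT3B in that total was 51.6% and 53.2% in control and 64.8% and 58.1% in oeDAZL. The groups did not overlap in this share, with means of 52.4% ± 1.09 and 61.5% ± 4.71 (SD, n = 2). The difference was 9.05 percentage points, and the two-sided exact permutation p was 0.333, the smallest that 2 libraries against 2 allow. With each library left out in turn it ran from 5.72 to 12.4 points. The share uses the same TPM values as the comparisons of the single genes and is no separate evidence.

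**Figure D3:**
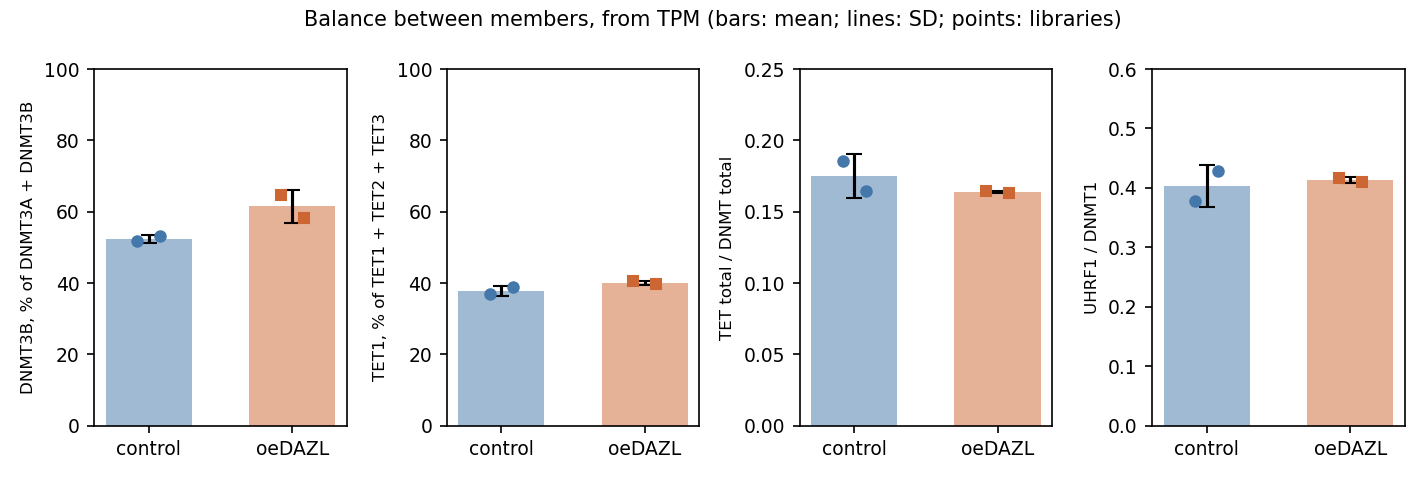
Balance within the family in each library: the share of DNMT3B in DNMT3A plus DNMT3B (percent), the share of TET1 in the TET total (percent), the ratio of TET to DNMT totals, and the ratio of UHRF1 to DNMT1, with points for libraries (n = 2 per group), bars for means and lines for SD. The groups stand apart in the first 2 panels, at 51.6% to 53.2% against 58.1% to 64.8% for DNMT3B and at 36.8% to 38.8% against 39.6% to 40.4% for TET1.

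Maintenance methylation was represented by DNMT1 and UHRF1. DNMT1 (chromosome 19, 10133342 to 10231286, minus strand) was listed at 122 TPM in each control and at 113 and 112 TPM in oeDAZL. The replicates were close, and both oeDAZL libraries were below both controls, with a difference of -7.64% between the means. The log2 fold change was -0.11 (SE 0.05), with an unadjusted P-value of 0.0764 and an adjusted p of 0.296 in limma. With median-of-ratios scaling it was -0.013 (unadjusted P-value 0.819, limma), and with quantile normalization -0.11 (unadjusted P-value 0.0836, limma). S1PR2, a receptor gene annotated over DNMT1 on the same strand, had a like log2 fold change of -0.11 at 8.52 to 9.66 TPM, and how reads were divided between overlapping genes is not given in the sources used here.

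UHRF1 (chromosome 19, 4903080 to 4962154, plus strand), which recognizes hemimethylated DNA, was listed at 46.3 and 52.3 TPM in control and at 47.4 and 46.0 TPM in oeDAZL. The groups overlapped, with a log2 fold change of -0.07 (SE 0.08, adjusted p = 0.639 in limma). It was -0.16 without control replicate 1, 0.011 without control replicate 2 and 0.025 with median-of-ratios scaling. The ratio of UHRF1 to DNMT1 was 0.379 and 0.429 in control and 0.417 and 0.410 in oeDAZL, and the exact permutation p was 1. DNMT1 and UHRF1 are made mainly in cells that replicate DNA, so 17 S phase genes were read beside them. Of these, 2 were higher and 2 lower at an unadjusted P-value of 0.05, or 23.5% beside 20.2% of all tested genes (5.02% higher and 15.2% lower). None had an adjusted p under 0.05 in limma, and the median log2 fold change was -0.01. TYMS, which makes thymidylate, was listed at 190 and 213 TPM in control and at 253 TPM in both oeDAZL libraries. CDC45, a part of the replicative helicase, was listed at 30.2 and 26.7 TPM against 23.6 and 23.9 TPM.

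The TET dioxygenases were each listed lower in both oeDAZL libraries than in both controls, as were 38.4% of all tested genes. TET1 and TET2 turned above 0 with median-of-ratios scaling and with quantile normalization, but not without mitochondrial genes. TET3 (chromosome 2, 73984910 to 74108176, plus strand) was listed at 17.5 and 14.4 TPM in control and at 13.0 and 13.6 TPM in oeDAZL. The controls differed from each other by more than the lower of them differed from either oeDAZL library. Its log2 fold change was -0.24 (SE 0.12), with an unadjusted P-value of 0.0962 and an adjusted p of 0.328 in limma. Without control replicate 2 it was -0.37 (unadjusted P-value 0.0185, limma), without control replicate 1 it was -0.11, and with either median-of-ratios scaling or quantile normalization it was -0.14.

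TET1 (chromosome 10, 68560337 to 68694487, plus strand), the TET enzyme known from pluripotent cells and PGCs, was listed at 14.9 and 13.96 TPM in control and at 13.8 and 13.7 TPM in oeDAZL. TET2 (chromosome 4, 105145875 to 105279816, plus strand) was listed at 7.98 and 7.63 TPM in control and at 7.32 TPM in both oeDAZL libraries. Their log2 fold changes were -0.06 (SE 0.10) and -0.08 (SE 0.12), with adjusted p of 0.762 and 0.742 in limma. Intervals of -0.30 to 0.18 for TET1 and -0.38 to 0.22 for TET2 bound these differences. With each library left out in turn they ran from -0.10 to -0.018 for TET1 and from -0.11 to -0.053 for TET2, both nearest 0 without control replicate 1. With median-of-ratios scaling and with quantile normalization both were slightly above 0, as the closing section gives.

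The TET total was 40.4 and 36.0 TPM in control and 34.2 and 34.6 TPM in oeDAZL. Within it TET1 took 36.8% and 38.8% in control and 40.4% and 39.6% in oeDAZL, a difference of 2.23 percentage points (two-sided exact permutation p = 0.333). The ratio of the TET total to the DNMT total was 0.186 and 0.164 in control and 0.164 and 0.163 in oeDAZL. That difference of -0.0112 rested on the first control library, since without it the difference was -0.00055.

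The study concerns miRNAs whose precursors DAZL binds, so the 3′UTRs of the members were searched for sites of 5 of the miRNAs that it names, after the values of the members had been seen. The mature sequences, from the RefSeq table, are shown because their seeds (bases 2 to 8, in capitals) define the search, and no seed was shared among them. A site is the complement of the seed followed by A, read on the transcript strand of the MANE Select 3′UTR in GENCODE 44. TET3 was the only one of the 10 members with a site of these 5. Sites of miR-10b-5p and miR-199a-5p, which the study also names, were not searched for.
let-7a-5p: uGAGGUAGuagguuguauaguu
miR-22-3p: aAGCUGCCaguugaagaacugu
miR-199a-3p: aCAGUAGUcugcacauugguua
miR-125b-5p: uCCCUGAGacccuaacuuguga
miR-21-5p: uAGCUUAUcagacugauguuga

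Both TET3 sites lie in exon 12, in a 3′UTR of 6000 bases, and are printed 5′ to 3′ on the plus strand with the site in capitals. The let-7a-5p site is at chr2:74104967-74104974 and the miR-22-3p site at chr2:74106221-74106228 (hg38).
TET3 let-7a-5p site: acatgtctaacCTACCTCAaatctcagtca
TET3 miR-22-3p site: caagtcgagaaGGCAGCTAtctccctttct

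A long 3′UTR holds such letters often. Among 981 3′UTRs of like length, 11.52% held CTACCTCA and 6.83% held GGCAGCTA, against 3.8% and 2.0% of all 18780. The letters ACTACTGA, CTCAGGGA and ATAAGCTA of the other miRNAs were in 2.45%, 5.28% and 2.46% of all 3′UTRs and in no member. The 3′UTR of DNMT3A, at 6405 bases, was longer than that of TET3 and held none of the 5. A match describes letters only, and whether these miRNAs act on TET3 was not tested.

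The glycosylases of base excision, TDG and MBD4, had log2 fold changes above 0. TDG (chromosome 12, 103965822 to 103988874, plus strand), the glycosylase that removes the oxidized forms of methylcytosine, was listed at 65.6 and 69.6 TPM in control and at 68.0 and 72.0 TPM in oeDAZL. The groups overlapped, with a log2 fold change of 0.05 (SE 0.07, adjusted p = 0.719 in limma). It ran from 0.0063 without control replicate 1, and 0.0085 without oeDAZL replicate 2, to 0.092 with a library left out, and was 0.15 with median-of-ratios scaling. Its processed pseudogene TDGP1 was listed at 1.50 and 3.45 TPM in control and at 1.98 and 2.06 TPM in oeDAZL. Only uniquely mapped reads were kept, so reads matching both TDG and TDGP1 would count for neither. How many reads of TDG were lost in this way was not tested.

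MBD4 (chromosome 3, 129430947 to 129440179, minus strand), which excises thymine left by deamination of methylcytosine, was listed at 36.7 and 34.6 TPM in control and at 38.7 and 38.1 TPM in oeDAZL. Both oeDAZL libraries were above both controls, with a log2 fold change of 0.10 (SE 0.07, unadjusted P-value 0.198, adjusted p = 0.458 in limma). It was 0.20 with median-of-ratios scaling and 0.17 with quantile normalization, with unadjusted P-values of 0.0240 and 0.0456 and adjusted p of 0.199 and 0.278 in limma. Its lowest value with a library left out was 0.064, for control replicate 2, and its highest 0.15, for control replicate 1. IFT122 overlaps MBD4 on the opposite strand and pointed the other way, at 20.2 and 19.8 TPM in control and 16.8 and 16.9 TPM in oeDAZL. Whether the counting used strand is not given in the sources used here, so reads of MBD4 and IFT122 may not be fully separated.

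Other genes of the pathway were read from 8 lists holding 67 genes, of which 50 had a mean of at least 1 TPM and were tested. At an unadjusted P-value of 0.05, 4 were higher and 8 lower, or 24.0% of those tested beside 20.2% of all genes (5.02% higher and 15.2% lower). Their adjusted p ran from 0.0896 to 0.244 in limma and none was called, so none of the 50 passed the adjusted test.

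Among the 9 cofactors of maintenance, none was higher and 2 were lower at that P-value, beside 5.02% and 15.2% of all tested genes. LIG1, the ligase that joins Okazaki fragments and recruits UHRF1 when methylated, was listed at 62.6 and 64.0 TPM in control and at 52.4 and 55.7 TPM in oeDAZL. CDCA7L, a relative of the HELLS partner CDCA7, was listed at 27.5 and 23.6 TPM against 19.1 and 22.4 TPM. The oeDAZL libraries were below both controls for each gene. For the proteins that protect imprints, TRIM28, the corepressor of zinc finger proteins, was listed at 480 and 444 TPM against 404 and 416 TPM. ZNF445, which also acts at imprints, had a log2 fold change of -0.26 (unadjusted P-value 0.109, limma), and ZFP57 stayed under 0.1 TPM.

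Of 7 genes for readers of methylated DNA or their relatives, 1 was higher and 1 lower at that P-value, beside 5.02% and 15.2% of all tested genes. MBD3, a subunit of the NuRD complex, was listed at 64.5 and 67.1 TPM in control and at 50.1 and 51.0 TPM in oeDAZL. This log2 fold change of -0.37 (SE 0.06, adjusted p = 0.0896 in limma) had the lowest adjusted p of the lists. MBD2, which takes the place of MBD3 in a separate NuRD complex, was listed at 27.3 and 25.6 TPM against 30.8 and 32.8 TPM. The values of this pair pointed in opposite directions, as those of DNMT3A and DNMT3B did, and neither pair passed the adjusted test.

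Of 13 genes of base excision repair and the GADD45 family of adaptors, 3 were higher and 1 lower at that P-value, beside 5.02% and 15.2% of all tested genes. UNG, the uracil glycosylase, was listed at 95.6 and 86.2 TPM in control and at 115 TPM in both oeDAZL libraries, a log2 fold change of 0.33 (SE 0.07, adjusted p = 0.104 in limma). NEIL2, a glycosylase for oxidized bases, was listed at 12.3 and 11.6 TPM against 15.5 and 14.4 TPM. GADD45B and XRCC1 made up the 4 genes, and they are outside the rule for named genes and were named after their values were seen. GADD45B, a stress-induced adaptor, was listed at 32.8 and 49.0 TPM against 58.8 and 54.0 TPM. Its controls differed from each other by more than the higher of them differed from either oeDAZL library. Of its relatives, also named after their values were seen, GADD45A had a log2 fold change of 0.22 and GADD45G of -0.38. Their unadjusted P-values were 0.0804 and 0.0572 in limma. XRCC1, a repair scaffold, was listed at 44.2 and 41.8 TPM against 37.2 and 37.4 TPM.

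Of the 7 tested cofactors and partners of TET enzymes, 1 was lower and none was higher at that P-value, beside 15.2% and 5.02% of all tested genes. D2HGDH, which clears the TET inhibitor 2-hydroxyglutarate, was listed at 14.4 and 11.9 TPM in control and at 8.99 and 9.95 TPM in oeDAZL. IDH2, a source of the TET cosubstrate 2-oxoglutarate, had a log2 fold change of -0.11 (unadjusted P-value 0.141, limma). In the methyl donor cycle, MTR, which remakes methionine, was listed at 31.3 and 26.4 TPM against 21.4 and 23.0 TPM. Among 6 genes for the histone marks that DNMT3 enzymes read, NSD2 was listed at 93.0 and 92.5 TPM against 76.8 and 79.8 TPM, and NSD1, which makes the same mark, had a log2 fold change of -0.12 (unadjusted P-value 0.153, limma).

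**Figure D4:**
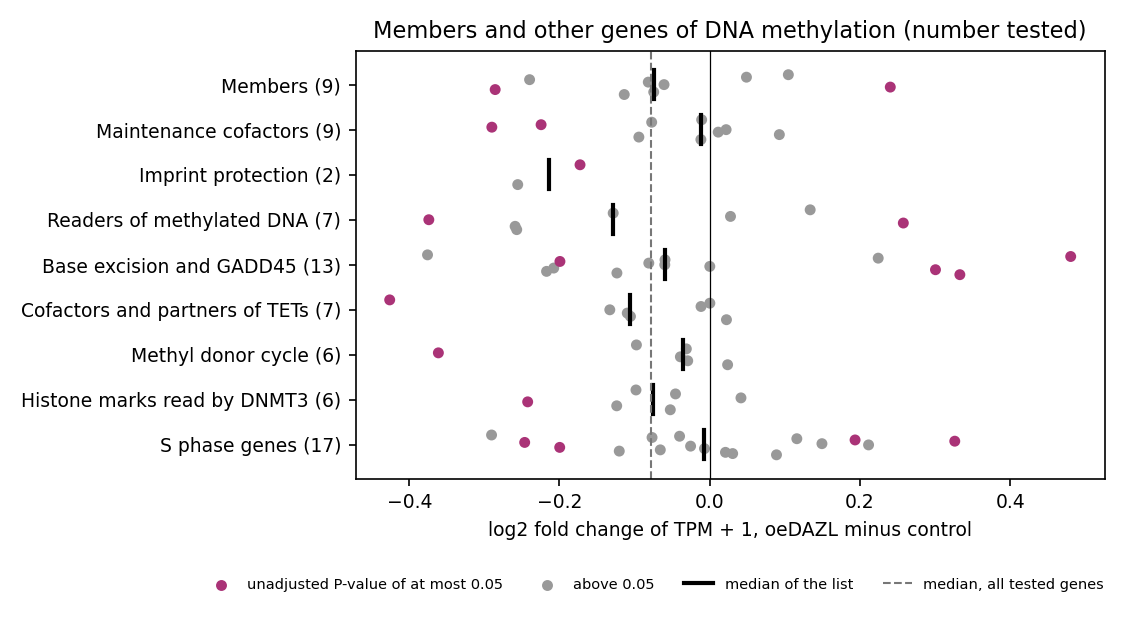
Log2 fold change of TPM + 1, oeDAZL minus control, for each tested member and each tested gene of the pathway and S phase lists, 1 point per gene, with the number tested in brackets. Short bars mark the median of each list and the dashed line that of all tested genes (-0.08). Coloured points have an unadjusted P-value of at most 0.05.

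Germline genes whose promoters are known to be silenced by methylation were read at the transcript level. None of the 12 reached a mean of 1 TPM. DDX4, SYCP1, TDRD9, ASZ1, HORMAD1, BRDT and TEX101 were listed at 0 in all 4 libraries, and the highest value of any was 0.288 TPM for SYCP3. The sums over the 12 genes were 0.477 and 0.353 TPM in control and 0.491 and 0.362 TPM in oeDAZL, so the groups overlapped. DNA methylation itself was not measured in these libraries, so these levels say nothing of the methylation of the promoters.

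**Figure D5:**
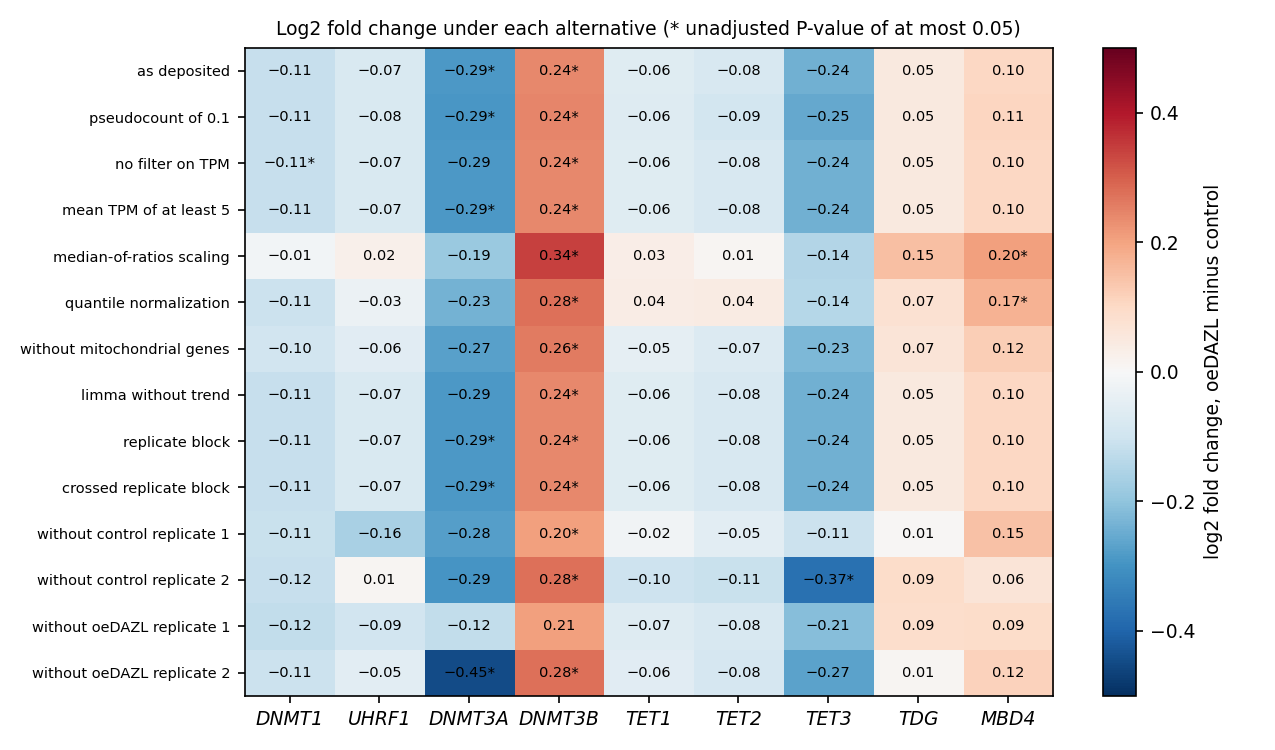
Log2 fold change (oeDAZL minus control) of each tested member under the values as deposited and each of 13 alternative settings, with the colour giving size and sign and a star an unadjusted P-value of at most 0.05 in limma. DNMT3B was positive and DNMT3A negative in every setting, whereas UHRF1, TET1 and TET2 changed sign in some.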

How the data were processed

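RNA sequencing of 2 control and 2 oeDAZL libraries was analysed. The authors deposited TPM per gene, made from uniquely mapped reads. The submitters' processing notes name Trim Galore 0.6.4, cutadapt 1.18, HISAT2 2.1.0, StringTie 2.1.4 and hg38, and the annotation release and strandedness are not given in the sources used here. Read depth cannot be recovered from TPM, and no counting interval was computed. Of 65003 entries, 45 for chromosome Y copies and 18 repeats were left out.

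The deposited TPM was put on the log2(TPM + 1) scale, and the 16687 genes with a mean of at least 1 TPM were fitted together with limma 3.58.1 in R 4.3.3 (trend on mean expression, no covariates, Benjamini-Hochberg adjustment over all tested genes). The members and lists were chosen with earlier results of these data known. The named genes were all members, DAZL, the 2 genes with the smallest P-value in each list and any called gene, and for cell type markers the highest of each list and genes under 0.1 TPM throughout. A gene that this rule selects is not reported here. Totals and shares were compared by exact permutation. The alternatives changed the pseudocount (0.1), the filter (none, or 5 TPM), the scaling, the trend, the replicate block and the libraries included.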

Additional observations from a re-analysis of the deposited data

How the results depend on the processing

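With n = 2 libraries per group and unknown depth, only the spread between libraries limits these values, and no exact test of a single value can give a p under 0.333. Of 117 values of the 9 members under 13 alternatives, 98 kept their direction and side of an unadjusted P-value of 0.05 in limma, 9 lost that P-value, 4 gained it and 6 reversed, and the lowest adjusted p was 0.0809. The causes were not tested. With median-of-ratios scaling, which moved the median of all genes by 0.09, the log2 fold changes of UHRF1, TET1 and TET2 were 0.025, 0.034 and 0.0078, and with quantile normalization, which moved it by 0.08, those of TET1 and TET2 were 0.036 and 0.043. With each library left out, UHRF1 ran from -0.16 to 0.011 (without control replicate 2), and the UHRF1 to DNMT1 ratio, 0.0102 higher in oeDAZL, ran from -0.0149 to 0.0353 with each library left out. The TET to DNMT ratio difference ran from -0.0219 to -0.00055, that of the TET1 share from 1.24 to 3.22 points. The median of the members, -0.07, was 0.025 and 0.036 under these scalings and -0.10 to -0.053 with a library left out. DNMT3A kept an unadjusted P-value of at most 0.05 only with a pseudocount of 0.1, at least 5 TPM, both blocks and without oeDAZL replicate 2. The 2 members at that P-value became 1 without mitochondrial genes, 1 without limma's trend, 0 with a 2-fold change required, 0 by adjusted p, and 0 to 2 with a library left out (0 without oeDAZL replicate 1). MBD4 reached it with both scalings (log2 fold change 0.20 and 0.17), TET3 without control replicate 2 (-0.37) and DNMT1 without a filter (-0.11). The 115 called genes became 322 with a pseudocount of 0.1, 29 at 5 TPM or more, 10 by adjusted p, and 120 to 322 with a library left out (322 without control replicate 2, 175 and 232 without oeDAZL replicates 1 and 2). Of them 81.7% were lower, against 72.3% under median-of-ratios scaling and 58.9% under the quantile method. The 20.2% of all tested genes at an unadjusted P-value of 0.05 in limma became 12.3% without a filter and 23.1% at 5 TPM or more. Same-numbered replicates share only a number (correlation of deviations -0.104). With the replicate block 125 genes were called and the lowest adjusted p of a member was 0.258. The crossed block, chosen after seeing the data, called 135, with 1089 genes at an adjusted p under 0.05 and no member among them. It also gave the lowest adjusted p of a member in any alternative, 0.0809 for DNMT3B.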
